A study of Mus musculus with 6 samples.

Results

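The immediate early genes examined here were Fos, Fosb, Jun, Junb, Egr1, Ier2, Ier3, Atf3, Nr4a1 and Zfp36, taken by gene symbol from the deposited table of counts per gene. All 10 were found among its 20199 genes, and all 10 passed the filter on low counts, which left 15185 genes for testing. The libraries were bulk RNA sequencing of aortic smooth muscle cells of 12-week-old mice of the strain labelled C57B6. Every mouse carried mTmG, a fluorescent reporter of Cre activity, and Myh11ERT2, an inducible driver under the promoter of the smooth muscle myosin gene. The control group was WT at miR-21 and the other group was miR-21fl/fl, which the labels call miR21 -/- and which is called knockout here. Each group had 3 libraries. The sources used here do not give the inducer, the way the cells were isolated or the animals behind each library. The p-values therefore measure the spread between these 6 samples only, which may be technical. MicroRNA-21 itself was not analysed here, so its deletion was not checked.

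Immediate early genes are switched on within minutes of a growth factor, mechanical or stress signal, without new protein synthesis, because the factors that bind their promoters are already in the cell. Kinases such as ERK, p38 and JNK activate serum response factor with its ETS partners and CREB, and these drive transcription. Most of the products are transcription factors. Fos and Jun proteins pair to form AP-1, Egr1 is a zinc finger factor and Nr4a1 an orphan nuclear receptor, while Zfp36 is an RNA-binding protein that ends the response by destabilising AU-rich transcripts. In vessel tissue the same genes respond to stretch and injury, and they are also known to rise while tissue is cut or digested into cells.

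The promoters of these genes hold short motifs that read such signals, and 8 of the 10 members had an entry in the RefSeq promoter table (build GRCm38.p6, windows of 300 bases, from 250 before to 50 after the start). Egr1 and Ier2 had none. Shown are 4 of the 8 as examples of bases before the start that hold the motifs searched. Each line gives the 120 bases before 1 RefSeq transcription start, 5′ to 3′ on the strand of the gene. For Atf3 and Zfp36 that start lies inside the gene as the deposited table bounds it. Capitals mark a CArG box (the serum response factor site), a TATA box TATAAA, an EGR site GCGNGGGCG or a CRE core TGACG, all on either strand.

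Fos, chr12:85473770-85473889, plus strand: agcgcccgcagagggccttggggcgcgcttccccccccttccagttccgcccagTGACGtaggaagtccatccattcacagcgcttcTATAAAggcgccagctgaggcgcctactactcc

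Nr4a1, chr15:101266726-101266845, plus strand: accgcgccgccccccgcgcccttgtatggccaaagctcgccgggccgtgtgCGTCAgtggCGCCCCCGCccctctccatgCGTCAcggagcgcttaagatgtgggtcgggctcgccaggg

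Atf3, chr1:191183334-191183453, minus strand: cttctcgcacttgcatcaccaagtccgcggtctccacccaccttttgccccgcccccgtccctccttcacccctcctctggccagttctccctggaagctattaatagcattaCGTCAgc

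Zfp36, chr7:28379229-28379348, minus strand: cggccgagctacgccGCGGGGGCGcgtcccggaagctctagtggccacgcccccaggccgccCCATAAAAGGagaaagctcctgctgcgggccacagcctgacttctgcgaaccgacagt

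In Fos a CRE core starts 66 bases and a TATA box 33 bases before the start. Nr4a1 holds CRE cores 69 and 40 bases before the start, on the reverse strand, with an EGR site at 60 that shares no base with either. In Zfp36 a CArG box begins 58 bases and an EGR site 105 bases before the start. Over the whole windows, the CRE core TGACG was in 5 of the 8 members (Fos, Fosb, Junb, Atf3 and Nr4a1) and in 20.8% of the 32851 promoters of that length. The EGR site was in 3 (Fosb, Nr4a1 and Zfp36) against 5.55%, and the CArG box was in 1, Zfp36, against 1.63%. The TATA box letters were in 2 (Fos and Junb) against 13.6%. In Junb they begin at base 1, the start itself, so they do not lie before it as in Fos. The full CRE TGACGTCA (1.79% of promoters) and the AP-1 site TGANTCA (7.81%) were in 0 of the 8. The core TGACG lies within the full CRE and was added after the sequences had been seen. These are exact matches of letters within the windows. A near match such as TGACATCA before the start of Jun was therefore not counted, and well-known elements such as the Fos serum response element lie outside the windows.

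Library totals ran from 17123748 to 28610649 counts. Values below are CPM, counts scaled to a common library size, after TMM scaling, a correction for library composition. The smooth muscle label held in every library, with the summed level of 8 contractile and identity markers (Myh11, Acta2, Tagln, Cnn1, Smtn, Lmod1, Myocd and Des) at 42246 to 48608 CPM. Summed endothelial markers were at 36.6 to 47.9 CPM, mostly Pecam1, and macrophage markers at 2.62 to 10.3 CPM. Fibroblast markers were at 50.7 to 102 CPM.

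The immediate early genes were among the most abundant transcripts of these cells in both genotypes. Together they took 2.95%, 2.18% and 2.63% of all counts in the wild-type libraries, in the order of replicates 1, 2 and 3, and 1.59%, 2.70% and 2.45% in the knockout libraries. Triplets of values below keep that order. Fos ranked between 5 and 12 by count among the 20199 genes of each library, and Egr1 between 11 and 23. Between 6 and 9 of the 10 genes lay among the 100 largest in a library. Ier3 was the least abundant, at ranks from 374 to 1342.

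The AP-1 genes come first, since Fos led the set. Positions are on mm10, 1-based, and cover the whole gene. Fos (chromosome 12 from 85473890 to 85477273) encodes a partner of Jun proteins in the AP-1 dimer. It was at 8913, 6591 and 7974 CPM in wild-type replicates 1, 2 and 3, and at 4688, 7244 and 7344 CPM in knockout replicates 1, 2 and 3. Knockout replicate 1 was the lowest library, while the other two knockout libraries lay inside the wild-type range. The log2 fold change of knockout against wild type was −0.28 ± 0.20 SE (95% interval −0.74 to 0.17, edgeR adjusted p = 0.781).

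Fosb, the close relative of Fos (chromosome 7 from 19302696 to 19310051), was at 1145, 737 and 1219 CPM in wild type and 546, 1138 and 939 CPM in knockout. Wild-type replicate 2 and knockout replicate 1 were low, and the groups overlapped (−0.24 ± 0.28 SE, edgeR adjusted p = 0.833). Jun (chromosome 4 from 95049034 to 95052222), which can form AP-1 with itself or with Fos proteins, was at 2347, 1866 and 2501 CPM in wild type and 1496, 2643 and 2216 CPM in knockout. Its highest library and its lowest were both knockout, replicates 2 and 1, and its difference was the smallest of the 10 (−0.08 ± 0.21 SE, edgeR adjusted p = 0.935). Junb (chromosome 8 from 84974484 to 84978718), which can pair with Fos and restrain Jun, was at 2728, 2107 and 1892 CPM in wild type and 1309, 2264 and 2279 CPM in knockout. Only knockout replicate 1 lay below the wild-type libraries (−0.20 ± 0.23 SE, edgeR adjusted p = 0.834). Atf3 (chromosome 1 from 191170296 to 191218039), a stress-induced factor that pairs with Jun proteins, had the largest SD of log2 CPM of the 10 in both genotypes. It was at 1328, 737 and 1208 CPM in wild type and 492, 1366 and 880 CPM in knockout, so that knockout held both the highest and the lowest library (−0.26 ± 0.34 SE, edgeR adjusted p = 0.858).

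The AP-1 genes differed in level, and their shares were compared within each family. Per kilobase of the longest annotated transcript, Fos was at 3712 ± 554 CPM per kb in wild type and 3048 ± 714 in knockout (SD, n = 3). Junb came next of the AP-1 genes at 1241 ± 240 and 1080 ± 308, then Jund, a Jun gene that is expressed without a stimulus, at 862 ± 246 and 635 ± 159. Jun was at 702 ± 104 and 664 ± 182 CPM per kb, Atf3 at 550 ± 158 and 460 ± 221, and Fosb at 276 ± 69.2 and 233 ± 80.4. Jun, Jund and Atf3 lay within their spread of a neighbour in this order. Fosl1 and Fosl2, which are known as later-acting Fos relatives, stood far lower, at 4.19 ± 1.10 and 24.5 ± 4.47 CPM per kb in wild type. Fos made up 91.0% to 93.4% of the Fos family level per kb in all 6 libraries, and Fosb made up 5.87% to 8.04%. In the Jun family the shares were 41.6% to 48.0% for Junb, 21.7% to 31.1% for Jun and 25.5% to 33.7% for Jund. The ratio of Junb to Jun counts was lowest at 75.7% (wild-type replicate 3) and highest at 116% (wild-type replicate 1), a range of 1.54-fold.

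Egr1 (chromosome 18 from 34859823 to 34864984), whose protein is held in check by NAB corepressors, was the second most abundant member. It was at 5381, 4440 and 5438 CPM in wild type and 3168, 5087 and 4590 CPM in knockout. Knockout replicate 1 was again below every other library, and the 2 other knockout libraries lay within the wild-type range (−0.25 ± 0.19 SE, edgeR adjusted p = 0.785). Its relatives Egr2 and Egr3 were at 6.74 ± 2.93 and 8.95 ± 1.49 CPM per kb in wild type, against 1641 ± 181 for Egr1.

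Nr4a1 (chromosome 15 from 101266846 to 101274792) was at 3369, 2646 and 2906 CPM in wild type and 1774, 3124 and 2660 CPM in knockout. Knockout replicate 1 lay apart on the low side and the rest overlapped (−0.24 ± 0.21 SE, edgeR adjusted p = 0.793). It made up 95.1% to 97.1% of the level per kb of Nr4a1, Nr4a2 and Nr4a3 in every library. The ratio of Nr4a1 to Egr1 counts was between 53.4% and 62.6%, a range of 1.17-fold over libraries in which Nr4a1 itself ranged 1.90-fold.

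Ier2 (chromosome 8 from 84661331 to 84662852) encodes a small nuclear regulator of transcription. It was at 1726, 1247 and 1186 CPM in wild type and 839, 1395 and 1189 CPM in knockout, with wild-type replicate 1 high and knockout replicate 1 low (−0.28 ± 0.21 SE, edgeR adjusted p = 0.785). Zfp36 (chromosome 7 from 28376784 to 28380253) was at 2734, 1809 and 1802 CPM in wild type and 1181, 2510 and 1724 CPM in knockout. Wild-type replicate 1 and knockout replicate 2 were high together. Knockout replicates 1 and 3 lay below every wild-type library, and the groups overlapped through knockout replicate 2 (−0.23 ± 0.27 SE, edgeR adjusted p = 0.841). Zfp36 made up 85.1% to 91.3% of the level per kb of Zfp36, Zfp36l1 and Zfp36l2.

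Ier3 (chromosome 17 from 35821684 to 35822923), which encodes a protein that modulates ERK and NF-kB signalling and cell survival, was the member whose groups did not overlap. It was at 351, 197 and 221 CPM in wild type and 122, 180 and 191 CPM in knockout. The highest knockout library and the lowest wild-type library were 191 and 197 CPM, so the separation was narrow. The log2 fold change was −0.64 ± 0.24 SE (95% interval −1.19 to −0.09), with an unadjusted p of 0.0265 and an adjusted p of 0.775 in edgeR over all genes tested. Of all genes tested, 7.57% were lower in knockout with no overlap and 3.44% were lower with an unadjusted p under 0.05. Without wild-type replicate 1 the value was −0.34 (edgeR adjusted p = 0.733), and without knockout replicate 1 it was −0.46 (0.996).

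**Figure D1:**
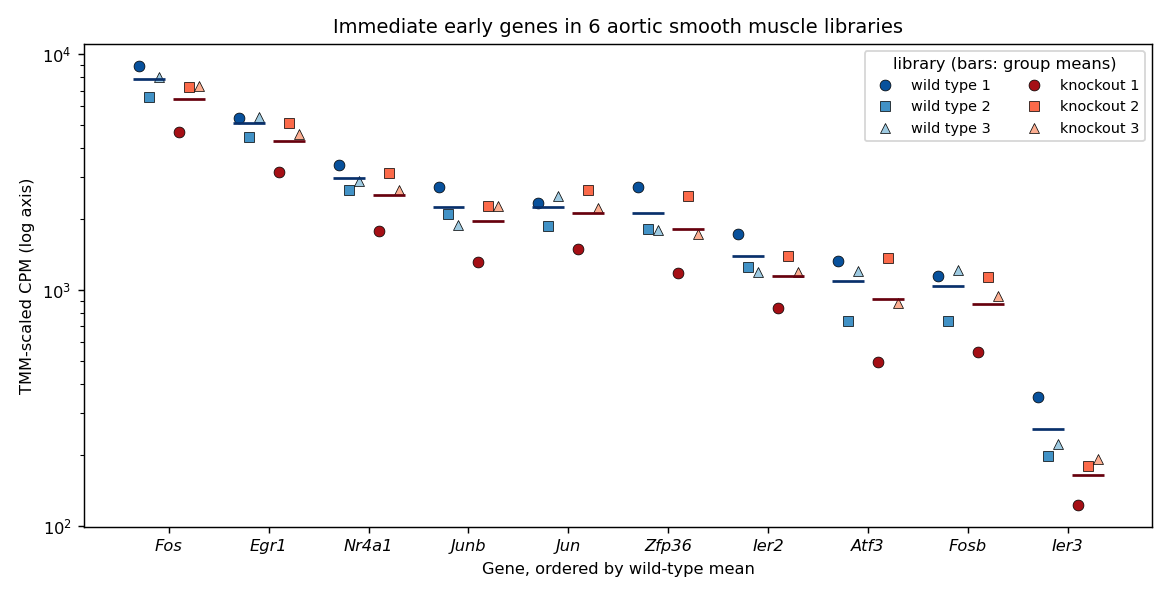
TMM-scaled CPM of each immediate early gene (log axis) in every library, with horizontal bars for the group means of 3 libraries. Knockout replicate 1 is the lowest of the 6 libraries for all 10 genes. The range of the other 2 knockout libraries overlaps that of the wild type except for Ier3.

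Whether the genotypes differ in this response was tested in one fit over all genes. None of the 10 members passed: edgeR called 0 of them over all genes tested, where it called 0% of genes, and DESeq2 also called 0 of the 10, where it called 0.454% of genes. With an unadjusted p under 0.05 edgeR listed 1 member, Ier3, and 6.29% of all genes. All 10 members had a negative fold change, against 50.1% of genes tested. Their median log2 fold change was −0.24, from −0.64 for Ier3 to −0.08 for Jun, against −0.00078 over all genes tested. The 95% interval, which is not adjusted for the number of genes, included 0 for 9 of the 10, all but Ier3. The intervals were of unequal width, from −0.68 to 0.18 for Egr1 and from −1.03 to 0.52 for Atf3.

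That lean depended mostly on knockout replicate 1, and in part on wild-type replicate 1. Without knockout replicate 1, 5 of the 10 members had a lower fitted mean (49.4% of genes tested) and the median was −0.02. Jun was then at 0.12, Atf3 at 0.04, Junb at 0.02, Fosb at 0.01 and Zfp36 at 0.0042, while Fos (−0.10), Egr1 (−0.07), Nr4a1 (−0.04) and Ier2 (−0.10) stayed below 0 by less than their standard errors. Without wild-type replicate 1 all 10 were lower (48.8% of genes tested) with a median of −0.12. With both of these libraries left out, 2 of the 10 were lower and the median was 0.09. Without knockout replicate 2 the median was −0.44, and with the remaining libraries left out singly it ran from −0.34 to −0.27.

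**Figure D2:**
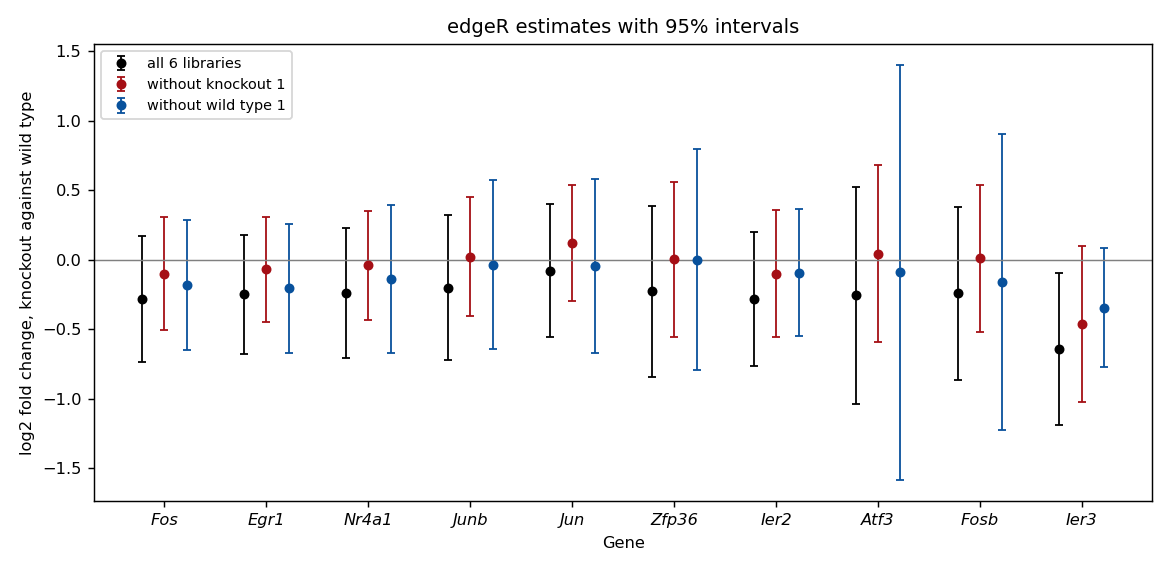
edgeR log2 fold change of knockout against wild type for each gene, with 95% intervals, from all 6 libraries, without knockout replicate 1 and without wild-type replicate 1. The estimates from all libraries are below 0 for all 10 genes, and 5 of them lie above 0 once knockout replicate 1 is left out.

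The members shared their lowest library, while the order of the others varied from gene to gene. Knockout replicate 1 was the lowest of the 6 libraries for 10 of 10 members, which was so for 18.9% of all genes tested. Its level was between 43.8% (Atf3) and 65.9% (Ier3) of the mean of the other 2 knockout libraries. Wild-type replicate 1 was the highest of the 6 for 6 members, against 32.1% of genes, namely Fos, Junb, Ier2, Ier3, Nr4a1 and Zfp36. Wild-type replicate 3 was highest for Fosb and Egr1 and knockout replicate 2 for Jun and Atf3. Within wild type, replicate 2 was the lowest for 7 members, against 28.3% of genes, and replicate 1 the highest for 7, against 42.3%. From the lowest to the highest library the members ranged from 1.72-fold (Egr1) to 2.87-fold (Ier3).

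The spread within the knockout group was wide for genes of this abundance. The SD of log2 CPM among the 3 knockout libraries had a median of 0.42 over the members, from 0.35 for Ier3 to 0.74 for Atf3, against a median of 0.10 for the 1723 genes with a mean of at least 100 CPM. All 10 members stood above that median, between the 95.8 and 99.9 percentiles of those genes. Over all genes tested, whose median was 0.16, they lay between the 81.5 and 95.8 percentiles. Among the wild-type libraries the median over the members was 0.28, from 0.16 for Egr1 to 0.46 for Atf3, against 0.20 for the same 1723 genes, with 8 members above. The members there lay between the 40.2 and 90.8 percentiles. Over all genes tested 6 members stood above the wild-type median of 0.25, between the 29.7 and 80.6 percentiles. The background spread was thus also wider in wild type. Over all genes tested, wild-type replicate 1 was the highest of the 6 libraries for 32.1% and the lowest for 32.5%. Its part in the wild-type percentiles was not tested. Whether the spread of the genotypes differs was not tested either.

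**Figure D3:**
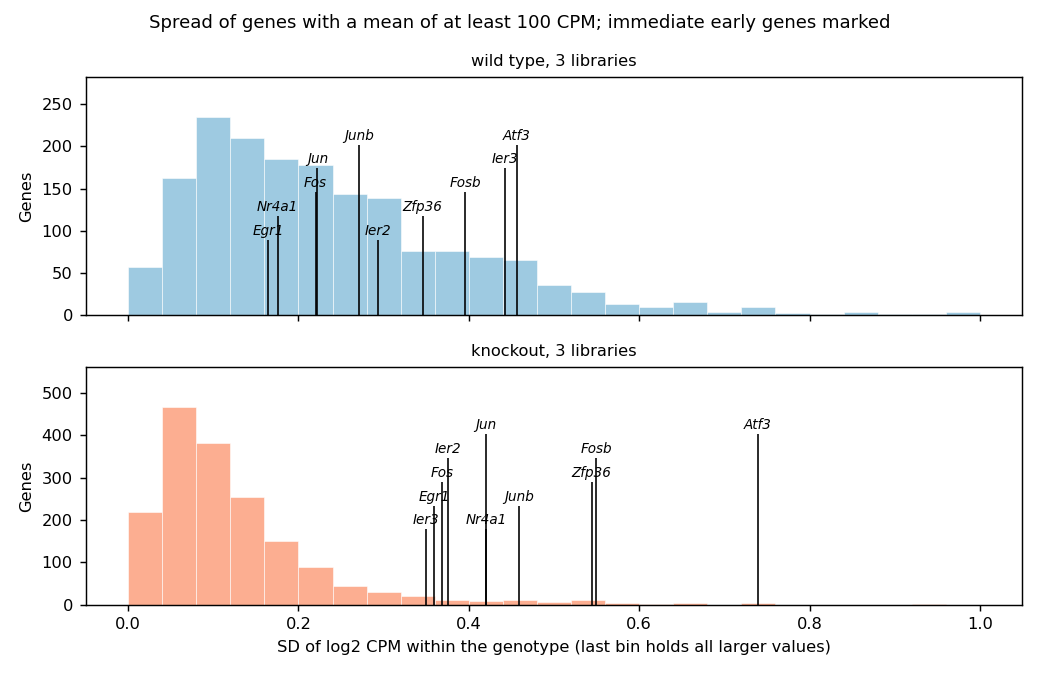
Number of genes by the SD of log2 CPM within each genotype (x axis), for genes with a mean of at least 100 CPM, with the immediate early genes marked. In knockout the 10 genes sit in the right tail, from 0.35 to 0.74, and in wild type they are spread from 0.16 to 0.46.

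Other measures of knockout replicate 1 are given beside this. Its total was 17216701 counts, and that of wild-type replicate 1 was 17123748; in the latter the members were highest on average. Lars2 and CT010467.1, features that commonly collect ribosomal reads, took 1.98% of its counts, within the 1.73% to 2.31% of the other libraries apart from wild-type replicate 1 (3.31%). Its smooth muscle markers summed to 43649 CPM, inside the range of the others, but single markers went both ways. In knockout replicate 1 Myh11 was the highest of all libraries (11026 CPM), and Cnn1 (2512 CPM) and Smtn (2996 CPM) were the lowest. Acta2, Tagln, Lmod1, Myocd and Des lay between the other libraries. Its macrophage markers, 3 of 8 of which (Adgre1, C1qa and Ptprc) were at 0 counts in at least 1 library, were the lowest in sum at 2.62 CPM against 4.87 to 10.3 CPM. Of these, Cd14, Lyz2, C1qb and Ptprc were each lower in another library than in knockout replicate 1. The summed endothelial markers were the lowest by a small margin, at 36.6 CPM against 37.3 to 47.9 CPM, with Kdr and Tek at 0 in at least 1 library. Pecam1, most of that sum, was at 29.9 CPM in knockout replicate 1 and lower, at 29.3 CPM, in knockout replicate 2. Emcn was highest in knockout replicate 1, at 0.46 CPM. In knockout replicate 1 the summed fibroblast markers, none of them at 0, were the highest at 102 CPM against 50.7 to 86.3 CPM. Lum (52.8 CPM) and Pdgfra (19.8 CPM) were highest there, while Dpt, Pi16, Cd34, Ly6a, Clec3b and Dpep1 were each highest in another library. Fabp4, which adipocytes and some endothelial cells express, was the lowest in knockout replicate 1 at 38.9 CPM against 53.5 to 74.5 CPM. The part of these in the result was not tested. In bulk libraries fewer responding cells and less RNA per cell cannot be told apart.

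Further early response genes, from a list of 20 other transcription factors, had list means in the same library order as the members. In edgeR 0 of the 20 rose and 0 fell, 18 had a lower fitted mean in knockout, and the median log2 fold change was −0.26. The mean centred log2 CPM of this list was 0.46, −0.12 and 0.13 for wild type and −0.63, 0.17 and −0.01 for knockout. The 10 members gave 0.41, −0.11 and 0.14 for wild type, then −0.65, 0.21 and −0.0066 for knockout. Knockout replicate 1 was the lowest library for 17 of the 20. Without it 13 had a lower fitted mean and the median was −0.09. The smallest p-values were those of Egr4 (−1.06, at under 2 CPM in every library), the growth regulator Myc (−0.70), Ier5 (−0.47) and Srf (−0.22), which encodes serum response factor itself, each with an edgeR adjusted p of 0.778. Without wild-type replicate 1 Egr4 was at −0.52, Myc at −0.39 and Ier5 at −0.28, and without knockout replicate 1 Myc was at −0.41 and Ier5 at −0.26.

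Feedback, signalling and secreted genes of the early response were also low in knockout replicate 1, with a mean centred log2 CPM of −0.43 there. It was the lowest of the 6 libraries for 20 of the 30. Of 30 tested, 0 rose and 0 fell in edgeR, 23 had a lower fitted mean, the median was −0.30, and knockout replicate 1 was the lowest knockout library for 26, as it was for 10 of 10 members and 36.6% of all genes tested. Without that library 21 were lower and the median was −0.18. The smallest p-values were those of Nfkbia, the inhibitor of NF-kB (280 ± 58.2 CPM against 184 ± 40.5 CPM, −0.61, edgeR adjusted p = 0.760), the matricellular genes Ctgf (−0.66) and Cyr61 (−0.60), and the stress sensor Gadd45g (−0.58, and −0.30 without wild-type replicate 1). Ctgf differed from the members in that knockout replicate 3 was its lowest library, at 2980 CPM against 3786 CPM in knockout replicate 1.

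The genes of the upstream kinases and factors did not share that order. Of 26 tested, 0 rose and 0 fell in edgeR, the fitted mean was higher for 15 and lower for 11, and the median was 0.08. The list's mean centred log2 CPM stayed between −0.09 and 0.06 in all 6 libraries, and knockout replicate 1 was the lowest library for 4 of the 26. The smallest p-values were those of Atf2 (0.34), a CREB-related factor, the ERK kinase gene Map2k2 (−0.22), the ETS factor gene Elk3 (0.23) and Mapk14 (0.20), which encodes p38 alpha. Without wild-type replicate 1 Atf2 was at 0.15, Map2k2 at −0.13, Elk3 at 0.15 and Mapk14 at 0.07. Transcript levels of kinases do not measure their activity.

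Heat shock genes, which respond to stress through another factor, shared the highest and lowest library of the members on average, but not the order between. Their mean centred log2 CPM was 0.82, −0.07 and 0.43 for wild type and −0.55, −0.20 and −0.43 for knockout. All 11 had a lower fitted mean (median −0.78, −0.70 without knockout replicate 1 and −0.54 without wild-type replicate 1). The unadjusted edgeR p was under 0.05 for all 11, as it was for 6.29% of all genes tested. After adjustment over all genes edgeR called 0 of them, while DESeq2 called 3 fallen, Hspa8, Hsph1 and Hspb1. The smallest p-values in edgeR were for Hspa8 (−0.91), Hsph1 (−1.02), Hspb1 (−1.02, and −0.75 without wild-type replicate 1) and the mitochondrial chaperone gene Hspd1 (−0.59). Knockout replicate 2 was at 0.21 for the immediate early genes and at −0.20 for the heat shock genes, and knockout replicate 1 was the lowest library for 7 of the 11.

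Transcripts that Zfp36 protein is reported to bind were mostly low in abundance. Of 12 listed, 7 were tested, 6 of them with a lower fitted mean (median −0.45), and edgeR called 0. The cytokine Il6 was at 12.9, 7.98 and 7.77 CPM in wild type and 4.90, 5.25 and 3.49 CPM in knockout, with no overlap (−1.07, and −0.80 without wild-type replicate 1, edgeR adjusted p = 0.507), and DESeq2 called it fallen (adjusted p = 0.0437). Its lowest library was knockout replicate 3, unlike Zfp36 itself. Other small p-values were those of the chemokines Cxcl1 (−0.56) and Cxcl2 (−0.45) and of Plaur (−0.41, and −0.05 without wild-type replicate 1), the urokinase receptor gene, all with edgeR adjusted p-values from 0.605 to 0.778.

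**Figure D4:**
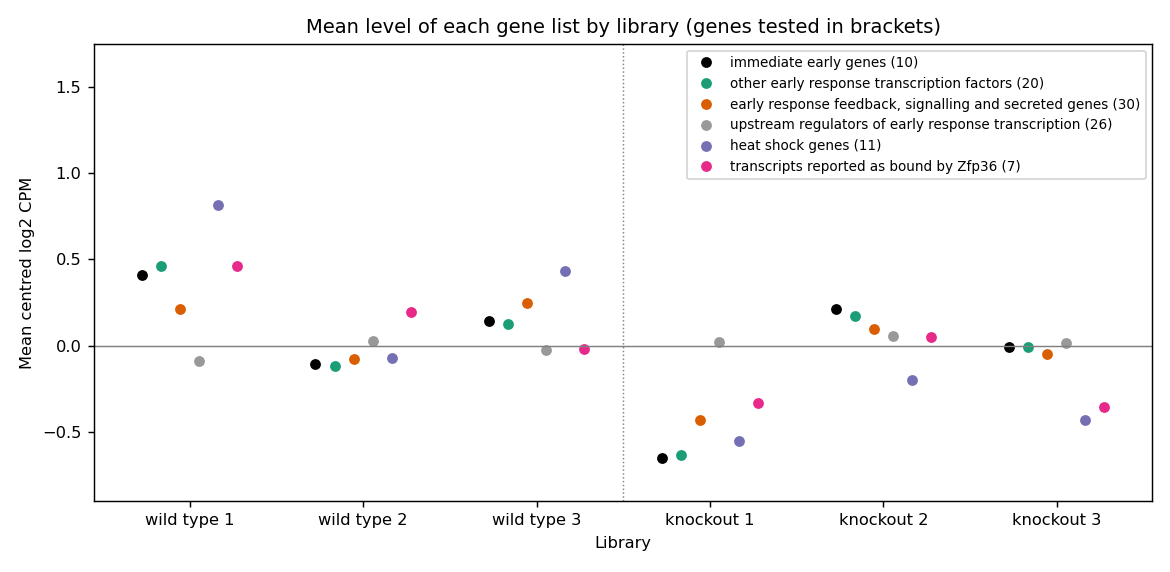
Mean over each gene list of log2 CPM after centring each gene on its mean of the 6 libraries, by library. Knockout replicate 1 is at −0.65 for the immediate early genes and −0.63 for the other early response factors, while the upstream regulators stay between −0.09 and 0.06.

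Among 8368 other protein-coding genes with a mean of at least 10 CPM, those with the profile nearest to the mean profile of the members over the 6 libraries were Ifrd1, Siah2, Rnd1, Sertad1, Cebpd and Zc3h12a. Their root mean square difference from it was 0.06 to 0.10 on the log2 scale. Ifrd1, which encodes a transcriptional coregulator, was at 291, 191 and 253 CPM in wild type and 142, 265 and 206 CPM in knockout, with knockout replicate 1 lowest, as for all 10 members, and wild-type replicate 1 highest, as for 6 of them. Siah2, a ubiquitin ligase gene, was at 29.4, 20.4 and 22.9 CPM and then 15.3, 24.4 and 21.7 CPM, and Zc3h12a, the gene of an RNase that degrades inflammatory transcripts, was at 14.6, 10.7 and 11.4 CPM and then 8.03, 12.9 and 10.3 CPM. They were picked for this likeness, so it is a description.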

How the data were processed

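The deposited values are expected counts per gene that the authors made from aligned reads and left unnormalized, as read from the values. Per the submitters' processing notes, STAR 2.6, DESeq2 and mm10 were used; the counting tool and strand setting were not given in the sources used here. Expected counts were rounded to whole numbers. Genes were filtered with the default of filterByExpr, scaled with TMM factors and tested with edgeR 4.0.16 (glmQLFit and glmQLFTest, robust=TRUE, R 4.3.3), 2-sided, genotype only, with p-values adjusted over all genes tested (Benjamini-Hochberg, threshold 0.05). Standard errors came from the fold change and its F value, and log2 CPM used a prior count of 2. DESeq2 1.42.0, limma 3.58.1 (voom), other scalings and filters and leaving out each library were alternatives. The fit of knockout against wild type was tested on simulated counts (200 changed genes, 14907 genes in the fit), where it called 90.9% of 4-fold and 59.6% of 2-fold changes and 6.29% of its calls were false. Those counts were drawn gene by gene, with no shift shared by the genes of a library and no change under 2-fold. The percentages therefore do not apply to the smaller changes of the members or to libraries that deviate as a whole. Gene ends are the deposited stop minus 1, which met the RefSeq gene end for 4672 of 17011 genes matched by symbol, against 411 for the stop itself. The deposited start met the RefSeq start for 4676 of them, so most gene bounds differ from RefSeq. Transcript lengths came from GENCODE vM1 sequences, and promoters from RefSeq.

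The members and gene lists were chosen with earlier results of these data known. Named were all members, the 4 genes of smallest p in each further list, the 6 nearest profiles, and the markers. Jund, Fosl1, Fosl2, Egr2, Egr3 and the share families were chosen as relatives of members after values were seen, as were the 100 CPM limit of the spread comparison and 2 of the alternatives. Summed marker levels not given in the report were 387 to 1186 CPM for erythroid genes (lowest in wild-type replicate 1) and 15.0 to 25.9 CPM for striated muscle. They were 1.60 to 3.45 CPM for Schwann cells and 0.0898 to 0.559 CPM for lymphocytes and granulocytes. Of the erythroid genes, Hba-a1, Hba-a2 and Hbb-bs were over 50 CPM in every library, and Hbb-bt ran from 19.0 to 62.2 CPM. Adipocyte markers were represented by Fabp4. Reads of overlapping genes cannot be told apart without strand.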

Additional observations from a re-analysis of the deposited data

How the results depend on the processing

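Members called stayed at 0 under all 16 alternatives, with edgeR, DESeq2 and limma voom. All 10 members kept a lower fitted mean under every change of scaling, filter, tool or dispersion setting, with medians from −0.28 to −0.21. With single libraries left out the number of members lower ran from 5 to 10 and the median from −0.44 to −0.02. Without wild-type replicate 1 and knockout replicate 1 together, chosen after seeing the data, 2 members were lower, the median was 0.086, and single values were 0.0017 for Fos, 0.086 for Fosb, 0.15 for Jun, 0.18 for Junb, 0.086 for Ier2, 0.21 for Atf3, 0.058 for Nr4a1 and 0.23 for Zfp36. Without knockout replicate 1 the signs also turned for Fosb (0.0090), Jun (0.12), Junb (0.02), Atf3 (0.04) and Zfp36 (0.0042), and without wild-type replicate 3 for Jun (0.0047). The lowest values with a single library left out were −0.39 for Fos, −0.48 for Fosb, −0.27 for Jun, −0.33 for Junb, −0.45 for Ier2, −0.67 for Atf3, −0.42 for Nr4a1 and −0.54 for Zfp36. Over all genes edgeR called 0 and listed 955 at an unadjusted p under 0.05. DESeq2 called 69, the fit without both first replicates 46, and fits without single libraries 0 to 9. DESeq2 called 3 heat shock genes and 1 Zfp36-bound transcript where edgeR called 0. The cause was not tested.

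The sources used here do not say whether same-numbered libraries were paired. Their deviations from the group means had correlations of −0.27, −0.18 and −0.08, against −0.11 to 0.21 for libraries of different number. With 3 libraries a group these values cannot decide whether there was a pairing. With the replicate block the median of the members was −0.27, 0 members and 0 genes were called, and 572 genes had an unadjusted p under 0.05. With 3 libraries a group, precision was limited by the spread between libraries and not by depth, as each member had at least 2150 counts in every library.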
